A study of Mus musculus with 8 samples.

Results

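Fatty acid and cholesterol synthesis was followed through 35 genes in a medullary thymic epithelial cell (mTEC) line with and without an intact Aire gene. The 35 symbols were listed by pathway, and all 35 were found among the 24052 symbols of the count files. They comprise 5 regulators, 4 genes of fatty acid synthesis, 3 elongases, 4 desaturases, 2 lipid carriers, 6 genes of the mevalonate steps and 11 genes of the steps from squalene to sterol. The symbols were chosen by pathway membership, with the measured difference between E6 and WT in these libraries already known, and Scd1 and Fabp5 in particular had been singled out in the study. For these 2 genes the values are therefore a description without a test. For the other 33 the difference between the cell lines is given with its FDR over all tested genes, but it was not independent of how the list was made.

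The RNA came from the WT mTEC 3.10 line and from its clone E6, in which Crispr-Cas9 had introduced mutations into exon 3 of Aire, each taken before and after thymocyte adhesion and profiled by RNA-Seq. Both lines are labelled C57BL/6 at passage 2. The labels give the genotype of E6 as Aire +/-, whereas the methods of the study describe mutations of both alleles. E6 is 1 clone grown from a single sorted cell, so that the mutation and the clone cannot be told apart. For adhesion, thymocytes of C57BL/6 mice were kept on the mTECs for 12 h at 50 thymocytes per mTEC and removed by washing. There were 2 libraries for each of the 4 groups. The labelled culture time before collection was 24 h for E6 before adhesion 1, E6 after adhesion 1 and WT after adhesion 2, and 12 h for the other libraries. Nothing states that the 2 libraries of a group came from separate cultures, so FDR values measure only the spread between these libraries.

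Cells make fatty acids from acetyl-CoA, which Acly supplies in the cytosol, by way of Acaca, the acetyl-CoA carboxylase, and Fasn, the fatty acid synthase. Elongases and desaturases then lengthen the chains and introduce double bonds. Cholesterol is made from acetyl-CoA by way of mevalonate, isoprenoid diphosphates, squalene and lanosterol. Both routes are governed by the transcription factors SREBP-1 (gene Srebf1) and SREBP-2 (Srebf2). SCAP escorts these from the endoplasmic reticulum to the Golgi, where they are cleaved and set free, and the INSIG proteins hold them back when sterols are plentiful. SREBP-2 mainly drives sterol genes and SREBP-1c mainly fatty acid genes.

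The libraries held 13506610 to 20145154 counts on genes, at which 3 counts correspond to 0.149 to 0.222 CPM (TMM-scaled counts relative to library size). Aire was almost absent in both lines, at 0 counts in 6 libraries and 3 counts each in WT after adhesion 2 and E6 after adhesion 2, so its level checked no label. Of 9 epithelial markers, 7 were at 267 CPM or more in every library (Krt7 highest at 2342 to 3810.0 CPM), while Krt5 was at 0.213 to 1.02 CPM and Krt19 at 0.208 to 3.24 CPM. Of the mTEC markers only Krt14 exceeded 2 CPM. The summed level of the 15 thymocyte markers in the files used here, of 25 listed, was 5.82 to 8.25 CPM in the 4 libraries before adhesion. It reached 18.2 and 17.7 CPM in WT and 115 and 90.7 CPM in E6 after adhesion. In bulk RNA, the share of thymocyte RNA and the level per cell cannot be told apart. Library WT after adhesion 1 stood apart from the other 7. Only 66.7% of its reads were assigned to genes, against 75.7 to 78.8% elsewhere, and its log2 CPM fell by 0.46 for each 10% of GC content, against slopes of -0.02 to 0.13.

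The question of the first comparison was how the Aire-mutant line differed from WT. By the median log2 FC over both conditions, lower levels in E6 ran through 6 of the 7 groups of genes and were deepest in the desaturases. Of the 2 carriers, Fabp5, given without a test, stood at -2.29 and Stard4 at -0.88. In contrast, 4 of the 5 regulators and 3 of the 4 genes of fatty acid synthesis were not called in either condition or in their average. Averaged over both conditions, 17 of the 33 genes given with a test were lower in E6 and none was higher, where a call required FDR under 0.05 together with at least 1.5-fold change. This is 51.5% of them, beside 11.3% of the 11672 genes tested, or 6.13% in the lower and 5.22% in the higher direction. The median log2 FC of the 33 genes was -0.64, beside -0.01 over all tested genes. Before adhesion 18 of the 33 were lower and none was higher, beside 5.01% of all genes called, 2.56% lower and 2.45% higher. After adhesion 15 were lower and none was higher, beside 8.91% called, 4.06% lower and 4.85% higher. In 24 of the 35 genes all 4 E6 libraries lay below all 4 WT libraries, beside 15.5% of all tested genes in this direction, and only Elovl1 lay above, beside 15.7%. Before adhesion 30 genes lay below and Insig2 and Elovl1 above (background 35.5% and 35.4%), and after adhesion 25 below and the same 2 genes above (background 25.3% and 26.8%). Because the list was made with this contrast known, nothing is read from these shares.

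**Figure D1:**
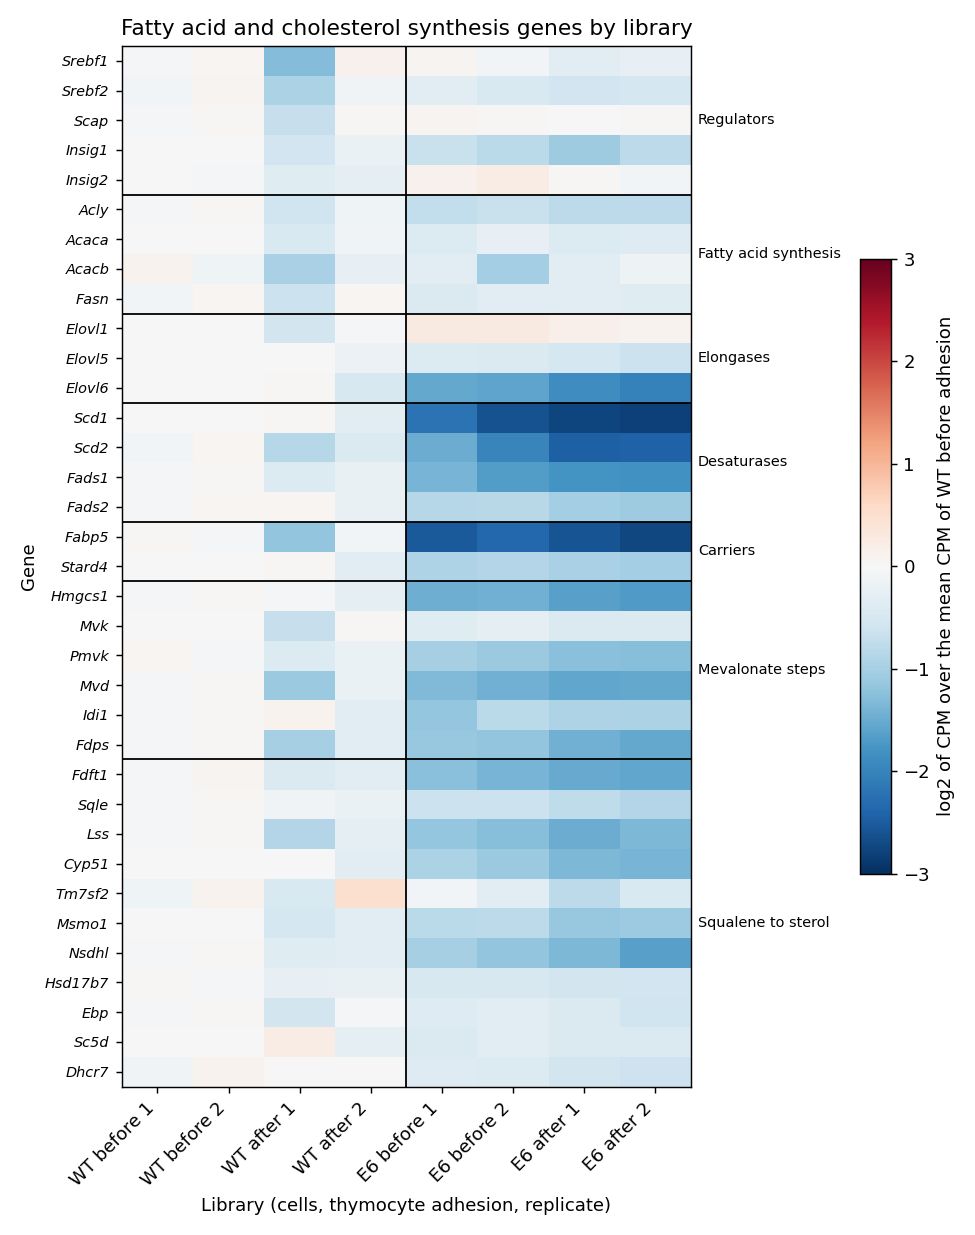
Level of the 35 genes in the 8 libraries, as log2 of the CPM over the mean of the 2 WT libraries before adhesion, with genes in rows by role and libraries in columns. Blue marks a lower and red a higher level, and the 4 E6 columns are blue for most genes from Elovl6 down to Nsdhl, while Scap, Insig2 and Elovl1 are pale or reddish there.

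Without library WT after adhesion 1, 19 of the 33 genes were called lower in the averaged contrast, beside 13.2% of all genes, and 19 after adhesion, beside 15.6%. The averaged count lay between 16 and 19 when any 1 library was left out. The counts within a condition moved more, and the calls over all genes moved with them. The 18 genes before adhesion became 3 without WT before adhesion 1 and 3 without WT before adhesion 2, where 37 and 39 genes were called in all instead of 585. They became 4 without E6 before adhesion 1 and 1 without E6 before adhesion 2 (69 and 46 genes in all), and 8 without either of the E6 libraries after adhesion (173 and 175 in all). The 15 genes after adhesion became 9 without either of the WT libraries before adhesion, where 343 and 340 genes were called in all instead of 1040. They became 1 without E6 after adhesion 1 and 0 without E6 after adhesion 2 (43 and 27 in all). With library WT after adhesion 2 left out, 16 of the 33 were called after adhesion, and 3 of these, Srebf1, Scap and Elovl1, were higher in E6, beside 37.7% of all genes called in that setting.

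Of the regulators, Insig1, whose protein holds SCAP in the endoplasmic reticulum and whose gene is itself a target of SREBP, was the only one called. It stood at 205 and 205 CPM in WT before adhesion, 138 and 178 after it, 129.9 and 117 in E6 before and 97.3 and 118 after. The 4 E6 values lay below the 4 WT values, with a log2 FC of -0.64 ± 0.11 (SE; edgeR FDR 0.00899) averaged over both conditions. Its paralogue Insig2 stood at 42.4 and 41.1 CPM in WT before adhesion, 32.4 and 34.5 after it, 45.9 and 49.1 in E6 before and 42.7 and 39.5 after. These values ran the other way, with E6 above WT within each condition, and did not pass the test (log2 FC 0.24 ± 0.08, edgeR FDR 0.0746). Per exon length, the ratio of Insig1 to Insig2 was 4.79 to 5.81 in the WT libraries and 2.56 to 3.35 in the E6 libraries, without overlap.

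The SREBP genes themselves showed no such gap. Srebf1 stood at 108 and 118 CPM in WT before adhesion, 46 and 123 after it, 119 and 106 in E6 before and 88.8 and 95.8 after. The E6 libraries lay within the WT range, and the log2 FC was 0.06 ± 0.27 (edgeR FDR 0.903). Srebf2 stood at 290.3 and 325 CPM in WT before adhesion, 159.6 and 286 after it, 244 and 225 in E6 before and 206 and 214 after. The lowest WT value, in library WT after adhesion 1, was below all E6 values, and the other 3 were above them (log2 FC -0.24 ± 0.17, edgeR FDR 0.371). Scap stood at 103 and 110.3 CPM in WT before adhesion, 66.2 and 110.4 after it, 113 and 110.0 in E6 before and 106 and 109.5 after. It lay between 103 and 113 CPM in 7 of the 8 libraries and was low in WT after adhesion 1 (log2 FC 0.17 ± 0.15, edgeR FDR 0.457). The standard errors of Srebf1 and Srebf2 were larger than those of most other genes of the list.

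In fatty acid synthesis, Acly, which splits citrate into acetyl-CoA, stood at 476 and 493 CPM in WT before adhesion, 318 and 440.3 after it, 292 and 303 in E6 before and 282 and 280.2 after. All E6 values were below all WT values. Acly was called before adhesion (log2 FC -0.70 ± 0.16, edgeR FDR 0.049) but fell short of 1.5-fold in the averaged contrast (log2 FC -0.57 ± 0.11, edgeR FDR 0.0138). Fasn ranged from 598 to 977 CPM in WT and from 695 to 751 CPM in E6, and Acaca from 148 to 207 CPM and from 153 to 172 CPM. Both overlapped between the lines, with log2 FC values of -0.24 ± 0.15 and -0.23 ± 0.10 that did not pass the test. Acacb, the carboxylase isoform linked to fatty acid oxidation, was barely present at 1.98 to 4.37 CPM. Summed over the 4 genes, the level was 1481 ± 280 CPM (SD, n = 4) in WT and 1178 ± 35.7 CPM in E6, a ratio of 0.795. Libraries before and after adhesion are pooled in these sums. The lines overlapped, as WT after adhesion 1, at 1067 CPM, lay below every E6 library (1143 to 1228 CPM).

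The elongases went 3 ways. Elovl6, which lengthens C16 to C18 chains, stood at 123 and 125 CPM in WT before adhesion, 127 and 88.8 after it, 42.7 and 41.5 in E6 before and 34 and 30.5 after. The E6 values were less than 45 CPM and the WT values more than 85 CPM, with a log2 FC of -1.65 ± 0.12 (edgeR FDR 0.000452). Elovl5, an elongase of polyunsaturated chains, ranged from 106 to 121 CPM in WT and from 76.9 to 90.1 CPM in E6 without overlap, below the FC limit (log2 FC -0.46 ± 0.08, edgeR FDR 0.00797). Elovl1, which elongates very long saturated chains, was the only one of the 35 genes whose 4 E6 values, 76.4 to 85.3 CPM, all lay above the 4 WT values, 48.5 to 71.9 CPM. This did not pass the test (log2 FC 0.33 ± 0.12, edgeR FDR 0.0904).

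Of the 4 desaturases, the 3 given with a test were lower in E6, and Scd1 lay lower in every E6 library. Scd1 encodes a stearoyl-CoA desaturase, which places the first double bond into C16 and C18 chains. It stood at 81.1 and 82.7 CPM in WT before adhesion, 83.6 and 66.3 after it, 17.5 and 13.3 in E6 before and 12.1 and 11.7 after. E6 lay below WT in every library by a wide margin, with a log2 FC of -2.53 ± 0.13 (5.79-fold lower), and this was one of the 2 genes described without a test. Scd2, the more abundant isoform in these cells, stood at 1234 and 1361 CPM in WT before adhesion, 714 and 958 after it, 462 and 331 in E6 before and 239 and 242 after. The WT and E6 values did not overlap, and the averaged log2 FC was -1.75 ± 0.15 (edgeR FDR 0.000611). Both genes lie on chromosome 19 of GRCm38, Scd2 at 44293674 to 44306864 on the plus strand and Scd1 at 44394455 to 44407879 on the minus strand.

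Per exon length, Scd2 exceeded Scd1 by 7.65 to 14.7 times in the WT libraries and by 17.7 to 23.6 times in the E6 libraries. Fads1, the delta-5 desaturase of polyunsaturated fatty acids, stood at 113 and 118 CPM in WT before adhesion, 86.3 and 98.7 after it, 43.4 and 35.9 in E6 before and 33.1 and 32.5 after. Its log2 FC was -1.52 ± 0.09 (edgeR FDR 0.000237), with almost the same value before (-1.54 ± 0.13) as after adhesion (-1.50 ± 0.13). Fads2, the delta-6 desaturase that precedes it in the pathway, stood at 411 and 443 CPM in WT before adhesion, 443 and 367 after it, 237 and 240.1 in E6 before and 212 and 203 after. Its fall was smaller, with a log2 FC of -0.90 ± 0.09 (edgeR FDR 0.00122). Summed over the 4 desaturases, the level was 1665 ± 311 CPM in WT and 591.5 ± 128 CPM in E6, a ratio of 0.355.

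Of the 2 carriers, Stard4 was called lower in E6, and Fabp5 lay lower in every E6 library. Fabp5, a fatty acid-binding protein of epithelial cells, stood at 139 and 133 CPM in WT before adhesion, 59.4 and 129 after it, 23.7 and 26.4 in E6 before and 22.7 and 20.4 after. WT after adhesion 1 stood well below its replicate, yet above every E6 library. The log2 FC was -2.29 ± 0.23, again as a description without a test. Fabp5 has related processed copies in the mouse genome, and how reads shared with them were counted is not given in the sources used here. Stard4, a cytosolic sterol carrier, stood at 73.2 and 75.1 CPM in WT before adhesion, 75.7 and 58.5 after it, 39.2 and 40.1 in E6 before and 37.6 and 36.6 after. The lines did not overlap, and E6 varied by under 4 CPM over its 4 libraries (log2 FC -0.88 ± 0.10, edgeR FDR 0.00186).

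In the mevalonate steps 5 of 6 genes were lower in E6. Hmgcs1, the synthase that makes HMG-CoA, stood at 504 and 535 CPM in WT before adhesion, 507 and 421 after it, 189 and 189.7 in E6 before and 168 and 159 after. The lowest WT library was above the highest E6 library by a wide margin, and the log2 FC of -1.48 ± 0.09 had the lowest FDR among the 33 genes tested (edgeR FDR 0.000233). Mvk, the mevalonate kinase of the next step but one, did not follow, at 28.2 to 47.0 CPM in WT and 33.6 to 38.2 CPM in E6 (log2 FC -0.24 ± 0.16, edgeR FDR 0.318).

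Pmvk, the kinase that acts after Mvk, stood at 89 and 83 CPM in WT before adhesion, 64.3 and 75.5 after it, 42.9 and 39.7 in E6 before and 36 and 35.4 after. The log2 FC was -1.01 ± 0.09 (edgeR FDR 0.000695), without overlap between the lines. Mvd, the decarboxylase that yields isopentenyl diphosphate, stood at 73.4 and 76.8 CPM in WT before adhesion, 34.8 and 65 after it, 30.1 and 27.5 in E6 before and 25.7 and 26 after. WT after adhesion 1 came within 5 CPM of the highest E6 library, and Mvd was called before adhesion (log2 FC -1.38 ± 0.26, edgeR FDR 0.0285) but not after it (-0.95 ± 0.26, edgeR FDR 0.0604).

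Idi1, the isopentenyl diphosphate isomerase, stood at 65.1 and 69.3 CPM in WT before adhesion, 71.9 and 53.9 after it, 30.2 and 38.6 in E6 before and 35.2 and 34.8 after. The log2 FC was -0.90 ± 0.13 (edgeR FDR 0.00388). Fdps, which joins the isoprene units into farnesyl diphosphate, stood at 181 and 193 CPM in WT before adhesion, 93.1 and 148 after it, 85.7 and 82.3 in E6 before and 69.4 and 64.5 after. It was 2.03-fold lower in E6 by mean CPM (SE of the log2 FC 0.14, edgeR FDR 0.00434), and the lowest WT value was again in library WT after adhesion 1. Summed over the 6 genes, the level was 892 ± 103 CPM in WT and 387.5 ± 31.8 CPM in E6.

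From squalene to sterol, 6 of 11 genes were lower in E6, among them the 4 that lead from farnesyl diphosphate past lanosterol. Fdft1, the squalene synthase that commits isoprenoids to sterols, stood at 155 and 170.3 CPM in WT before adhesion, 119 and 127 after it, 67.6 and 62.1 in E6 before and 57 and 54.7 after. The log2 FC was -1.23 ± 0.08 (edgeR FDR 0.000261). Sqle, the squalene epoxidase, stood at 261 and 274 CPM in WT before adhesion, 248 and 233 after it, 171 and 171 in E6 before and 157 and 145 after. Its fall was the smallest of those called apart from Insig1 (log2 FC -0.66 ± 0.08, edgeR FDR 0.00202). Both genes kept the lines apart in all libraries.

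Lss, the lanosterol synthase, stood at 87.4 and 92.3 CPM in WT before adhesion, 48.6 and 73.3 after it, 40.4 and 36.8 in E6 before and 32.3 and 35.6 after. Its log2 FC was -1.03 ± 0.14 (edgeR FDR 0.00329), and the gap between the lines was narrowest at library WT after adhesion 1. Cyp51, the lanosterol demethylase, stood at 1167 and 1187 CPM in WT before adhesion, 1162 and 941 after it, 608 and 544 in E6 before and 464 and 447 after. It was the gene with the highest level per exon length of the list in both lines, and its log2 FC was -1.12 ± 0.10 (edgeR FDR 0.000774).

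Msmo1, the sterol C4-methyl oxidase, stood at 289.7 and 286 CPM in WT before adhesion, 200.2 and 232 after it, 165 and 166 in E6 before and 131 and 135 after. Its log2 FC was -0.75 ± 0.08 (edgeR FDR 0.00156). Nsdhl, the sterol dehydrogenase acting with it, stood at 95.7 and 99.7 CPM in WT before adhesion, 76.1 and 77.4 after it, 49 and 43.3 in E6 before and 38.4 and 31.8 after. Its log2 FC was -1.11 ± 0.09 (edgeR FDR 0.00063). Neither overlapped between the lines.

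The remaining 5 enzymes were not called. Hsd17b7, a keto reductase that acts beside Nsdhl and Msmo1, and Sc5d and Dhcr7, which act in the last steps, were lower in all E6 libraries with log2 FC values of -0.40 ± 0.07, -0.40 ± 0.12 and -0.49 ± 0.08. They passed the FDR (edgeR FDR 0.00918, 0.049 and 0.00843) but not the FC limit. Ebp, the sterol isomerase, had a log2 FC of -0.30 ± 0.12 (edgeR FDR 0.13), and Tm7sf2, a sterol reductase at 2.93 to 7.02 CPM, one of -0.47 ± 0.23 (edgeR FDR 0.194). Summed over the 17 genes from Hmgcs1 to Dhcr7, the level was 3127 ± 306 CPM in WT and 1585 ± 158 CPM in E6, a ratio of 0.507.

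**Figure D2:**
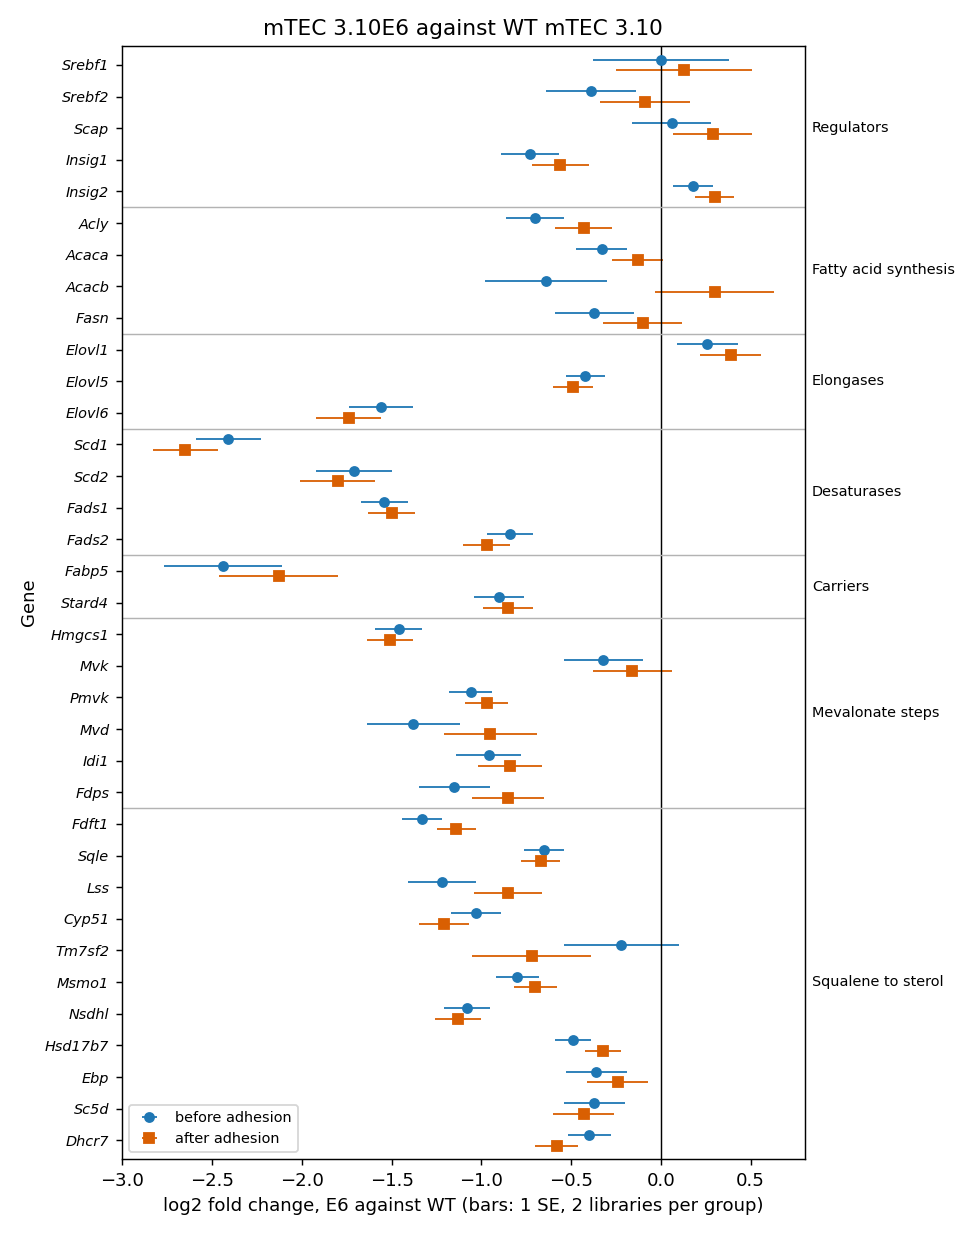
Log2 fold change of E6 against WT for each of the 35 genes, before adhesion (blue circles) and after adhesion (orange squares), with bars of 1 SE and 2 libraries in each group. Symbols of the desaturases, Elovl6, Fabp5 and most sterol genes lie left of 0 in both conditions, with Scd1 at -2.41 and -2.65, while Srebf1, Scap, Insig2 and Elovl1 lie near or right of 0.

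**Figure D3:**
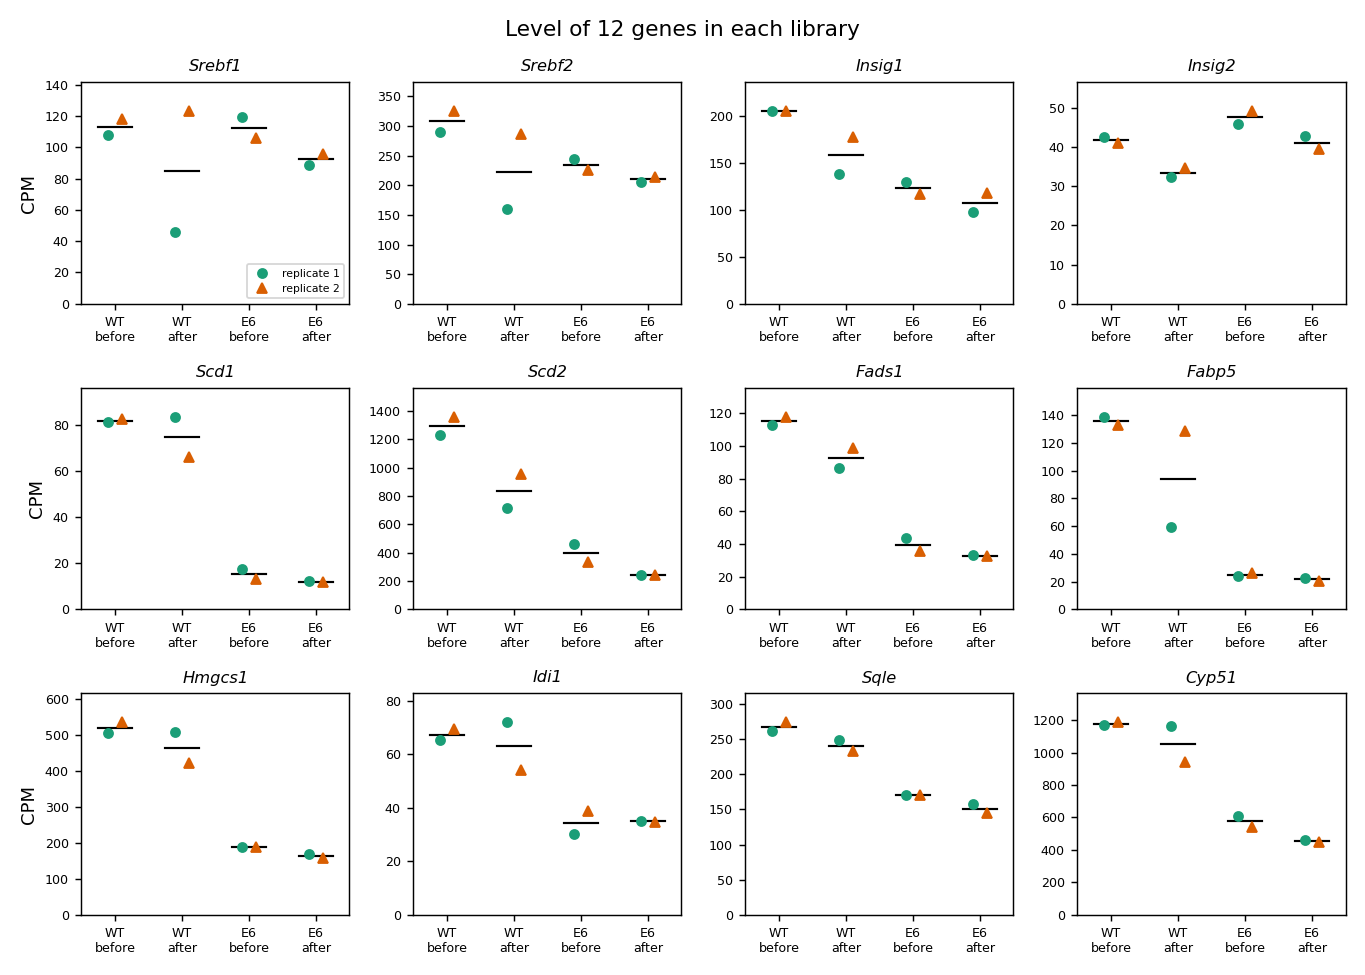
Level in CPM of 12 of the genes in each library, on axes that start at 0, with replicate 1 as circles, replicate 2 as triangles and a line at the mean of the 2 libraries of a group. Scd1, Scd2, Fads1, Fabp5, Hmgcs1, Idi1, Sqle and Cyp51 lie lower in all E6 libraries, and the replicates of WT after adhesion lie apart for Srebf1 (46.0 and 123 CPM) and Fabp5 (59.4 and 129 CPM).

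As the sterol genes were lower together, their promoters were searched for shared letters in the RefSeq promoters of GRCm38.p6, from 250 bases before to 50 bases after each start. An entry was found for 27 of the 35 genes, and none for Scd1, Scd2, Fads1, Fabp5, Stard4, Fdps, Fdft1 and Sqle. These 8 genes, all lower in E6 (Scd1 and Fabp5 without a test), could not be searched. The letters TCACNCCAC, a form of the sterol regulatory element bound by SREBP, and CCAAT, bound by NF-Y, were searched on both strands. TCACNCCAC occurred in 1 gene of the list, Hmgcs1, and in 1.44% of 27025 genes. Other forms of the element were not searched. CCAAT occurred in 23 of the 27 genes (85.2%) and in 41.1% of all genes with an entry. It occurred in 9 of the 11 genes with an entry that were lower in E6 and in 14 of the 16 that were not called. Only 2 matches, the adjacent CCAAT matches on opposite strands of Fasn, overlapped. The 150 bases before the start are shown for the 4 called genes with the deepest fall that held a match there, and for Mvk, the uncalled gene of the sterol pathway with most CCAAT matches. Matches are in capitals, with ATTGG marking CCAAT on the other strand, and the letters of TCACNCCAC in Hmgcs1 lie 137 to 129 bases before the start. The windows are chr13:119690201-119690350 (plus strand) for Hmgcs1, chr8:122443423-122443572 (minus) for Mvd, chr5:4104698-4104847 (minus) for Cyp51, chrX:72918371-72918520 (plus) for Nsdhl and chr5:114444119-114444268 (plus) for Mvk.
Hmgcs1: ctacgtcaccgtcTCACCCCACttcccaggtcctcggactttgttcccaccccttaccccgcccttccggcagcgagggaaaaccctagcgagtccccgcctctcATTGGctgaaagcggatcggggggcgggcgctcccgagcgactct
Mvd: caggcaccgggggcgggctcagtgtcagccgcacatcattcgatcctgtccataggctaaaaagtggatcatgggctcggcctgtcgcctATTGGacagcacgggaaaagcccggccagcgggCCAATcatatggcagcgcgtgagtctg
Cyp51: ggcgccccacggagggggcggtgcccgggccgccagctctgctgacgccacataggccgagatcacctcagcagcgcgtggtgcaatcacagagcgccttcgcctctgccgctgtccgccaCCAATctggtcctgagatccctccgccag
Nsdhl: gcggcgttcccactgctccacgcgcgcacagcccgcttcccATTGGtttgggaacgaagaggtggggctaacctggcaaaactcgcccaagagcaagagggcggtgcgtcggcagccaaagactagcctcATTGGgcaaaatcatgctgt
Mvk: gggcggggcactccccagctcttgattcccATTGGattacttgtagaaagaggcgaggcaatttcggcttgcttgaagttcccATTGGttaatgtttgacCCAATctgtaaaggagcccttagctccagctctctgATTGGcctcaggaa
Within these windows Mvk held 4 CCAAT matches, Mvd and Nsdhl 2 each and Cyp51 and Hmgcs1 1 each. A match describes letters only, and binding was not measured.

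Levels per exon length (CPM per kilobase of the union of exons) put Cyp51 first in WT, at 252 ± 26.3 (SD, n = 4), followed by Scd2 at 195 ± 52.9, Fads2 at 126 ± 11 and Hmgcs1 at 107 ± 10.7. The ranges over the 4 libraries overlapped between neighbours in this order, at 213 to 269 for Cyp51, 131 to 249 for Scd2, 111 to 134 for Fads2 and 91.6 to 116 for Hmgcs1. The libraries before and after adhesion are pooled in these ranges. In E6 Cyp51 stayed first at 117 ± 16.9, clear of the rest, and Fads2 at 67.7 ± 5.61, Fasn at 66.4 ± 2.15 and Scd2 at 58.3 ± 19.2 followed without a gap beyond their spread. Acacb was the lowest in both lines, at 0.350 ± 0.101 and 0.313 ± 0.0746.

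Over all genes, the difference between the lines varied with the chromosome. The median log2 FC of E6 against WT was 0.33 for 641 genes of chromosome 5 and -0.37 for 460 genes of chromosome 10, beside -0.15 to 0.03 for the other 13 chromosomes that hold genes of the list. Lss lies on chromosome 10, where 19.3% of genes were called lower. Elovl6, Fabp5, Pmvk and Fdps lie on chromosome 3, with a median of -0.14 and 14.9% called lower. Nsdhl, called lower, and Ebp, not called, lie on chromosome X, with a median of -0.15 and 8.95% called lower. All 4 genes on chromosome 5 had values below 0, against that chromosome's median. Of these, Insig1 and Cyp51 were called, and Mvk (log2 FC -0.24) and Acacb (-0.17) were not. The 4 desaturases lie on chromosome 19, whose median was -0.01. The part of chromosomal position in these values was not tested.

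The second question was what thymocyte adhesion did to these genes in each line. Most values lay slightly below 0, lowest for Scd2, but no gene passed the test. With both lines averaged, log2 FC values for adhesion were below 0 in 35 of 35 genes, beside 49.1% of all tested genes. Their median was -0.22, beside 0.00 over all tested genes. None was called (background 1.89% of 11672 genes, 0.103% lower and 1.79% higher). An unadjusted p under 0.05 was found for 12, beside 1154 of the 11672 genes. DESeq2 called Scd2 alone, beside 2.89% of all genes. In WT 33 of 35 values were below 0, beside 47.2% of all genes, with a median of -0.27. None was called (background 0.00%), and 10 had an unadjusted p under 0.05, beside 873 of all genes. DESeq2 called none of the 35 and 64 of all genes. In E6 32 of 35 were below 0, beside 55.3% of all genes, with a median of -0.19. None was called (background 2.00%, 0.0771% lower and 1.93% higher). Here 4 had an unadjusted p under 0.05, beside 813 of all genes, and DESeq2 called Scd2 alone, beside 2.54%. The WT and E6 values come from different libraries but share 1 fit.

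For Scd2, both libraries after adhesion were below both libraries before it, in WT as in E6. The log2 FC was -0.63 ± 0.20 in WT (edgeR FDR 0.62), -0.72 ± 0.20 in E6 (edgeR FDR 0.232) and -0.68 ± 0.14 averaged (edgeR FDR 0.0713). In E6 the value was -0.69 without the first of the WT libraries after adhesion and -0.71 without the second. With both of these left out of the fit, Scd2 was called in E6. In that fit 4.96% of all genes were called, against 2.00% with all 8 libraries. In WT the log2 FC of Scd2 was -0.44 without library WT after adhesion 1 and -0.87 without WT after adhesion 2. Each of these fits leaves 1 WT library after adhesion, so only effect sizes are given. In E6 before adhesion the library of 24 h culture held 462 CPM and that of 12 h 331 CPM, whereas after adhesion the 2 culture times held 239 and 242 CPM.

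Smaller values came next, in sterol genes and in regulators. Fdps, which makes farnesyl diphosphate, had an averaged log2 FC of -0.48 ± 0.14 and Nsdhl one of -0.37 ± 0.09 (edgeR FDR 0.245 and 0.133). Msmo1 had one of -0.36 ± 0.08 and Fdft1 one of -0.31 ± 0.08 (edgeR FDR 0.0916 and 0.149). Mvd stood at -0.37 ± 0.18 and Lss at -0.37 ± 0.14 (edgeR FDR 0.583 and 0.397). The regulators Srebf1 and Srebf2 stood at -0.35 ± 0.27 and -0.31 ± 0.17 (edgeR FDR 0.688 and 0.628). Scd1 stood at -0.25 ± 0.12 and Fabp5 at -0.37 ± 0.22, without a test. Idi1, Sc5d and Dhcr7 moved by under 0.10. In 22 of the 35 genes both WT libraries after adhesion lay below both before it, beside 14.5% of all tested genes, and in 29 genes this was so in E6, beside 31.5%. The reverse held for none, beside 16.6% and 23.6%. In no gene did the 4 libraries after adhesion of both lines together lie below or above the 4 before it (background 1.70% and 3.82%). It held in both lines for 19 genes, beside 7.21%, among them Scd2, Fads1, Fabp5, Fdps, Fdft1, Cyp51, Msmo1 and Nsdhl.

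**Figure D4:**
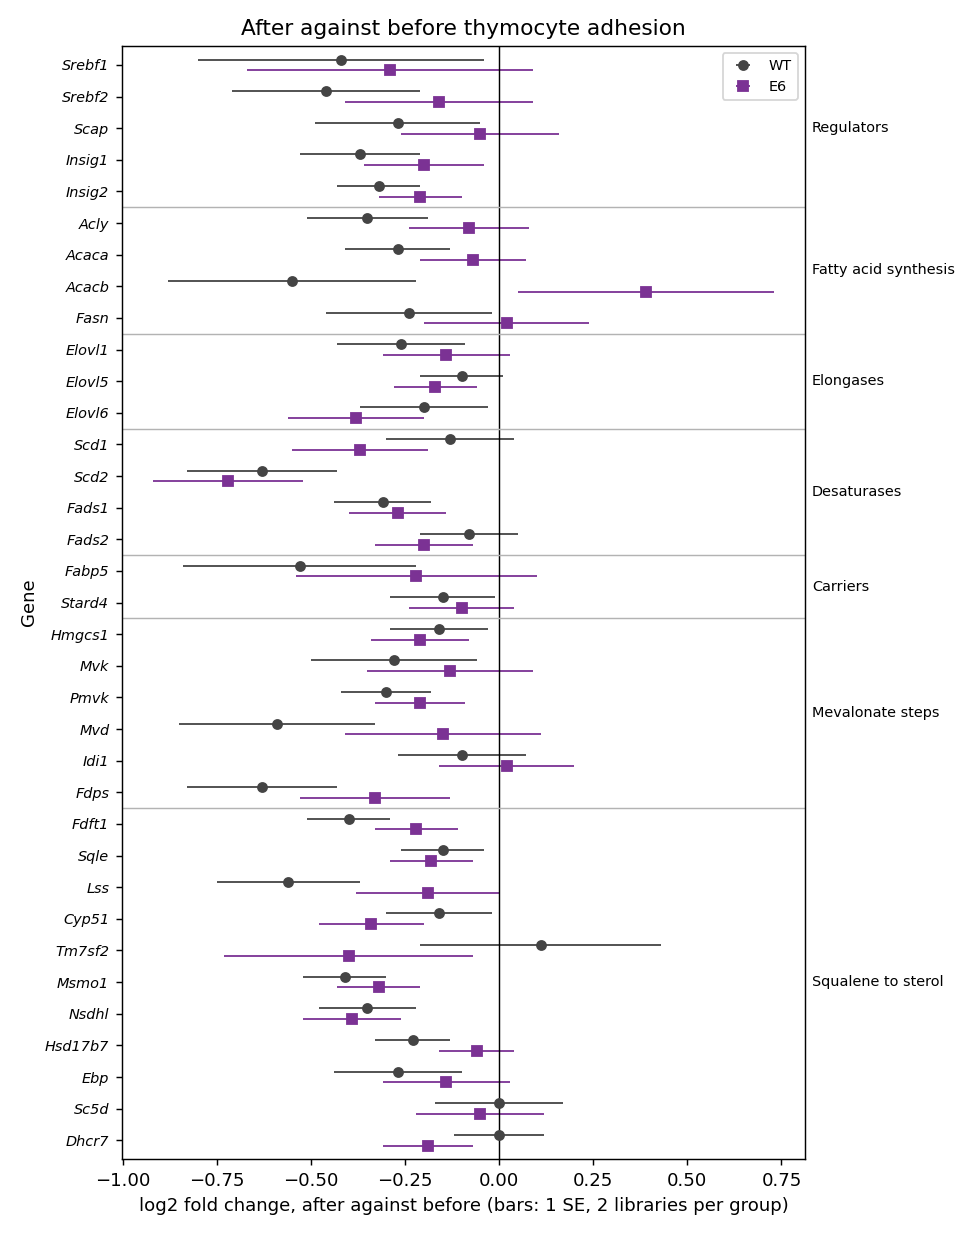
Log2 fold change of after against before thymocyte adhesion for each of the 35 genes in WT (grey circles) and E6 (purple squares), with bars of 1 SE and 2 libraries in each group. Most symbols lie between -0.50 and 0, Scd2 lies lowest in E6 (-0.72) and together with Fdps lowest in WT (-0.63 each), and none was called.

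The adhesion values in WT depended on library WT after adhesion 1. Its replicate differed from it by at least 1.5-fold in 11 of the 35 genes, beside 0, 1 and 0 genes in the other groups and 37.7% of all tested genes in this group. Srebf1 (log2 difference 1.42) and Fabp5 (1.12) differed most. Across the 35 genes, this difference went with GC content (Pearson's r 0.72 across genes, which share both libraries), as it did across 9731 genes (0.58). Replicate 2 was higher in 16 of 17 genes with at least 50% GC and in 9 of 18 with less. Leaving out library WT after adhesion 1 leaves 1 library in that group, so only effect sizes are given. The median log2 FC of the 35 genes in WT was then -0.22, with 30 below 0, beside a median of 0.00 over all tested genes. Averaged over the lines it was -0.17, with 31 of the 35 below 0, again beside 0.00 over all tested genes. With library WT after adhesion 2 left out instead, the group rests on WT after adhesion 1 alone. The median in WT was then -0.46, with 29 of the 35 below 0, beside 0.00 over all tested genes. Averaged over the lines it was -0.33, with 33 of the 35 below 0, beside 0.01 over all tested genes.

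**Figure D5:**
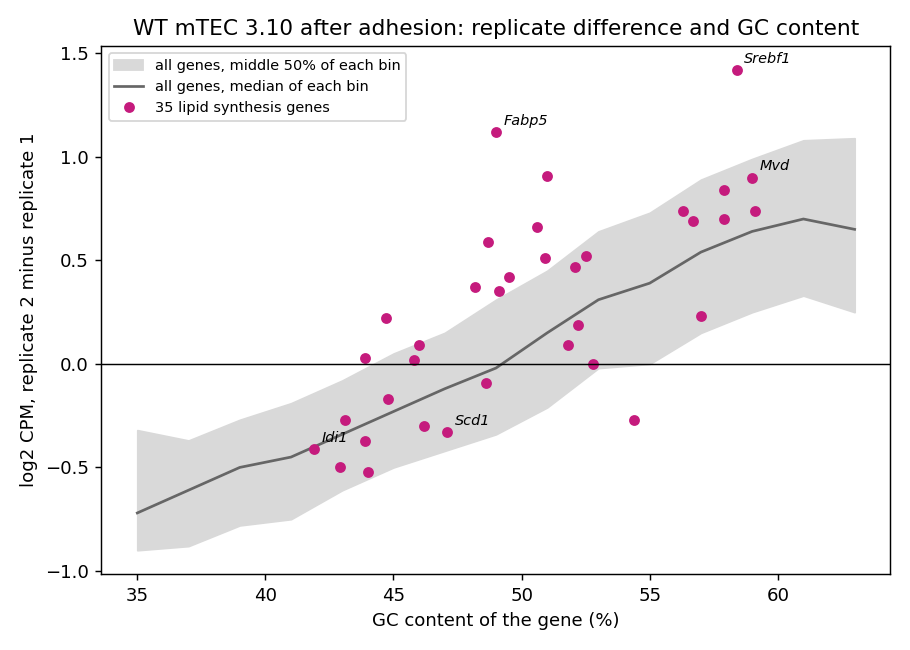
Log2 difference between the 2 WT libraries after adhesion (replicate 2 minus replicate 1) against the GC content of each gene in percent, for the 35 genes (points) and for the 9731 genes above a mean log2 CPM of 2 (line for the median and band for the middle 50% of each bin of 2% GC). The points rise with the line, from Idi1 at -0.41 to Srebf1 at 1.42, and Fabp5 at 1.12 lies above the band.

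The difference between the 2 adhesion effects, E6 minus WT, was tested directly. It was called for none of the 35 genes and for none of all tested genes (background 0.00%), with 0 of the 35 and 297 of all genes at an unadjusted p under 0.05, and DESeq2 called none of the 35. The values ran from -0.51 ± 0.46 for Tm7sf2 to 0.94 ± 0.48 for Acacb, both genes of few counts, with a median of 0.12. With library WT after adhesion 2 left out, the median was 0.23, beside 0.05 over all tested genes. Without WT after adhesion 1 it was 0.04, beside 0.02. Both fits leave 1 WT library after adhesion, so only effect sizes are given. The thymocyte marker sum rose more in E6 than in WT, as given above, and its part in the adhesion values of these genes was not tested.

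Around these 35 genes, 69 further genes of lipid handling were listed, of which 56 could be tested. Averaged over both conditions, 6 of the 56 were lower and 1 was higher in E6, beside 6.13% and 5.22% of all tested genes. The median log2 FC of the 56 was 0.02. The 3 deepest falls were in Lpin1, a phosphatidate phosphatase of glycerolipid synthesis (15.2 ± 2.67 CPM in WT and 2.66 ± 0.431 CPM in E6, SD, n = 4; log2 FC -2.50 ± 0.16, edgeR FDR 0.000256), in Idh1, the cytosolic isocitrate dehydrogenase that yields NADPH (74.8 ± 6.21 and 29.4 ± 3.01 CPM), and in Acat2, the acetyl-CoA acetyltransferase that starts the mevalonate route (102 ± 9.79 and 47.2 ± 6.36 CPM). Npc1, which exports cholesterol from lysosomes, was the 1 that rose (24.4 ± 2.26 and 37.1 ± 2.07 CPM; log2 FC 0.60 ± 0.10, edgeR FDR 0.00789). Of 7 genes that process or degrade components of the SREBP system, among them the proteases Mbtps1 and Mbtps2, none was called in any contrast. Of all tested genes, 0.00% to 11.3% were called in these contrasts.

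In the average of both lines, 1 of the 56 tested genes of this wider list was called for adhesion, beside 1.89% of all tested genes. Abcg1, an exporter of cholesterol, had 0 counts in all 4 libraries before adhesion, 11 and 10 counts in WT and 54 and 57 counts in E6 after it. Against a floor of 3 counts per library this was at least 3.13-fold higher in WT and at least 18-fold higher in E6. Abca1, the related exporter, chosen here after its values were seen, had 1 and 10 counts in WT and 43 and 48 in E6 after adhesion, and 0 before. Both genes moved with the thymocyte markers given above. Of 7 macrophage and dendritic cell markers, Lyz2 was at 0 before adhesion, at 0.851 and 1.16 CPM in WT and at 6.52 and 5.26 CPM in E6 after it. Cd68 was at 1.7 to 2.89 CPM before and 3.77 to 6.1 CPM after adhesion. Cd74 was at 0.0607 and 0 CPM in WT and 2.22 and 2.3 CPM in E6 before adhesion. After it, Cd74 was at 0.709 and 0.339 CPM in WT and 5.63 and 6.45 CPM in E6. Itgax, Itgam and Flt3 were at 0.958 CPM or less in every library. Csf1r, the most abundant of the 7, was at 41.7 to 65.9 CPM before and 39.2 to 56.5 CPM after adhesion. It made up most of the sum of the 7, which was 47 to 67.6 CPM before and 46.5 to 64.5 CPM after. The part of RNA from other cells in these counts was not tested.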

How the data were processed

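The deposited values are raw gene counts per library. Per the labels and the study's methods, STAR 2.5.0a was used by the authors to map paired-end reads to mm10 (GRCm38), and HTSeq to count them per gene, without normalization. The gene annotation and strand setting are not given in the sources used here. The labels name a TruSeq Stranded mRNA kit and the methods a total RNA kit. Samples were grouped by title, since the protocol text of the E6 libraries before adhesion mentions co-culture. In 1 library, 18 symbols turned into dates were restored by row order.

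Genes were filtered by filterByExpr (11672 kept, all 35 members) and fitted with edgeR 4.0.16 in R 4.3.3 (TMM, quasi-likelihood, 1 mean per group, 8 libraries). Calls needed a Benjamini-Hochberg FDR under 0.05 over all tested genes and an FC of at least 1.5. SE is the absolute log2 FC over the square root of F. The 35 genes, the roles, the wider lists and the named genes (regulators, called genes, the largest change of each role) were chosen with earlier results of these data known. Lengths, GC content and positions came from GENCODE vM21. Alternatives were RLE factors, DESeq2 1.42.0, no filter, a replicate block, culture time, a GC correction (lowess), only the 4 libraries compared and each library left out. The procedure was tested on simulated data. Floors of 3 counts cover counting error only.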

Additional observations from a re-analysis of the deposited data

How the results depend on the processing

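Counts of list genes here are over the 33 genes given with a test, without Scd1 and Fabp5. The averaged difference between E6 and WT gave 17 to 22 genes under the alternatives with all 8 libraries, always lower in E6. Beside these, 8.11% to 20.9% of all genes were called, and both highest values were without an FC limit. Before adhesion, leaving out 1 library gave 2 to 21 genes, and after adhesion 1 to 21. With only the 4 libraries compared, edgeR called 0 of the 35 and 0 of all genes after adhesion. DESeq2 on all 8 libraries called 18, beside 11.6% of all genes. For adhesion averaged over both lines, DESeq2 and the term for culture time called 1 gene each, and leaving out 1 library gave 0 to 5 genes. For adhesion in WT the range was 0 to 12 and for the difference of the adhesion effects 0 to 10. In both, the highest count was that without WT after adhesion 2. For adhesion in E6, DESeq2 called 1 gene, the 4 libraries compared 1 and the fit without both WT libraries after adhesion, chosen after seeing the data, 1, and leaving out 1 library gave 0 to 1. The gene called beyond the main result was Scd2 in each of these fits of adhesion in E6 and, for the averaged adhesion, under DESeq2 and with culture time. No called gene changed its direction under any alternative run. Over all genes, 585 were called between the lines before adhesion with all 8 libraries, 903 with GC correction, 383 with the block, 345 with culture time and 1457 with the 4 libraries compared. With any 1 library left out, the calls over all genes ranged from 671 to 2557 for the averaged difference of the lines, 37 to 1512 before and 27 to 4500 after adhesion. For adhesion they ranged from 39 to 1341 in the average, 0 to 3550 in WT and 0 to 643 in E6, and for the difference of the adhesion effects from 0 to 3049. The 1040 after adhesion became 0 with the 4 libraries compared. For E6 against WT averaged over both conditions, the 2444 without an FC limit stood against 1324. For adhesion, 221 were called in the average, 337 by DESeq2, 139 with the block and 124 with culture time. In E6, 234 were called, 132 with the block, 142 with culture time and 537 with the 4 libraries compared. In WT, 64 were called by DESeq2 against 0. The cause of these shifts was not tested.

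Replicate numbers in the labels are shared between groups, but nothing says that they mark a shared batch, and with 2 pairs the correlation of same-numbered deviations was -0.073 to 0.223, so they were not taken to pair the samples. With the replicate number as a block, 17 of the 33 genes given with a test were called in the averaged contrast of the lines, beside 10.9% of all genes. With it, 15 were called before adhesion, beside 3.28%, and 12 after adhesion, beside 6.18%. In each of the 4 contrasts of adhesion 0 were called, beside 0 to 1.19% of all genes. At 13506610 to 20145154 counts per library, Acacb and Tm7sf2, under 8 CPM throughout, were the members whose depth limited the comparison most.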
